A study of Mus musculus with 16 samples.

Results

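Open chromatin was examined around 5 genes of proliferating and embryonic cells, Hmga1, Hmga2, Igf2bp1, Igf2bp2 and Igf2bp3, in mouse myoblasts with and without added MyoD1. The 5 genes, of 21755 protein-coding genes, were chosen by the peak rank of a region upstream of Hmga2, which was lower with doxycycline in differentiating cells, so that contrast is described below with values and without a test. Members are the ATAC-seq peaks in each gene body plus 160 kb on each side. After every list had been cut to its 14710 strongest peaks, overlapping peaks merged into 44 regions in these windows, of 26213 regions in all: 8 around Hmga1, 12 around Hmga2, 9 around Igf2bp1, 8 around Igf2bp2 and 7 around Igf2bp3. With every deposited peak the windows held 126 of 80290 regions. The windows also cover other protein-coding genes (7 for Hmga1, 3 for Hmga2, 11 for Igf2bp1, 5 for Igf2bp2 and 8 for Igf2bp3), and a region was placed with a gene by position only.

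HMGA proteins are small architectural factors that bind the minor groove of AT-rich DNA through AT-hooks and bend it, which helps other factors assemble. IGF2BP proteins bind RNA and regulate the stability, transport and translation of transcripts such as Igf2 and Myc. Both families are abundant in embryonic and proliferating cells, are repressed by let-7 microRNAs and are opposed in this by LIN28, and Hmga2 and Igf2bp2 are known for roles in myoblast growth. ATAC-seq reports where a transposase can cut DNA, which marks active promoters and enhancers but is not a measure of transcription.

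The cells were C2C12 iMyoD1, a polyclonal mouse myoblast line in which doxycycline (dox) switches on an integrated Halo-tagged MyoD1 transgene beside the endogenous Myod1 gene, and all 4 groups carried the transgene. Dox turns the transgene on in only a minority of nuclei of this population, so each +dox library mixes induced and uninduced cells. GM no dox and GM +dox stayed in growth medium, and DM no dox and DM +dox were kept for 24 h in low serum, with dox or vehicle over the same time. Each group had 4 libraries. Replicate 1 of each DM group was left out, so 14 of 16 libraries were compared. Seeding was 75000 cells per well for GM and 300000 for DM, so medium and density cannot be told apart, and in a bulk library fewer cells with an open region cannot be told apart from a less open region in each cell.

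Depth differed between libraries. Kept lists held 14710 to 58587 peaks, and the genome-wide background, recovered from the peaks' fold enrichment and p, measured in fragments per base, was 0.339 to 0.992 without and 0.377 to 0.866 with dox in GM, and 0.511 to 0.901 without and 0.732 to 1.13 with dox in DM. GM no dox replicate 1 stood apart: it had the shortest list and no peak at 22 of the 44 regions, against 0 to 12 in the other 13 libraries. Myoblast identity was checked at promoters. Myod1 and Chrna1, which encodes a muscle acetylcholine receptor subunit, had a promoter peak in all 14 libraries, Pax3 had none, and the other 5 of 8 myoblast markers had one in 4 to 13. Of those 5, Myf5, Des, Itga7 and Pax7 had none among the strongest, and Cdh15 had one there in 3 libraries. Of 8 markers of endothelial, blood, epithelial and neural cells, 6 had no promoter peak in any library, and Pecam1 and Sox2 had one in 5 libraries each but none among the strongest. Itga7, a myoblast marker, had one in 4 libraries, fewer than either of these.

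The sequences at 5 summits are given first, since the values below turn on these sites: the Hmga2 promoter, a pair of regions far upstream of Hmga2, an Igf2bp3 intron and an Igf2bp2 intron. Each is 201 bases of the plus strand of GRCm38, the assembly behind mm10, centred on the summit, and capitals mark E-boxes (CANNTG, the motif class bound by MyoD1) and AP-1 motifs (TGANTCA). None overlaps an annotated exon.
Hmga2 promoter, chr10:120476703-120476903: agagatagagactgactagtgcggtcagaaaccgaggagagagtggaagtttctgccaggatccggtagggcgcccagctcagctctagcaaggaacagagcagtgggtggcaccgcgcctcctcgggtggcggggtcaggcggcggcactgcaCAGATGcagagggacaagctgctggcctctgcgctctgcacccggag
Hmga2, 151.8 kb upstream, chr10:120628177-120628377: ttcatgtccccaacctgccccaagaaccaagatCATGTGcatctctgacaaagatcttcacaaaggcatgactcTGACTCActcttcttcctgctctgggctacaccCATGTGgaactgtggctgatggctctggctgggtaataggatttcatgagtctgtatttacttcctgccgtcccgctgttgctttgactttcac
Hmga2, 148.0 kb upstream, chr10:120624343-120624543: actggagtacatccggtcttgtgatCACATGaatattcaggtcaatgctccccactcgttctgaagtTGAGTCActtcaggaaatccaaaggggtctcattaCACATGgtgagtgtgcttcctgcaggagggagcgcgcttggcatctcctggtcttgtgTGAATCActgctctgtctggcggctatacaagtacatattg
Igf2bp3 intron, 103.7 kb downstream of the start, chr6:49111197-49111397: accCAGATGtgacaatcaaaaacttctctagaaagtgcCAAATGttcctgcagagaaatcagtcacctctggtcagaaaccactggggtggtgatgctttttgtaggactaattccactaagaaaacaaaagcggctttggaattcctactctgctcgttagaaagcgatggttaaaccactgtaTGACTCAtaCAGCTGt
Igf2bp2 intron, 86.6 kb downstream of the start, chr16:22076601-22076801: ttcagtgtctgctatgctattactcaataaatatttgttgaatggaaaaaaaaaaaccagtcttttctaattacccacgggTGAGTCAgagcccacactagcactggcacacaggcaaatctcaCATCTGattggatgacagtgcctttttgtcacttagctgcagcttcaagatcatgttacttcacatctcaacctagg

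Both far-upstream Hmga2 sites held 2 E-boxes, one of them beside the summit, but no CAGCTG, the E-box form preferred by MyoD1. AP-1 motifs numbered 1 and 2 at these sites. The Igf2bp3 site held 3 E-boxes, of which 1 was CAGCTG near the edge of the stretch, and 1 AP-1 motif. Within 100 bases of the summit, CANNTG on either strand was found in 28 of the 44 regions (63.6%) against 61.4% of all 26213, CAGCTG, which is itself a CANNTG, in 11 (25.0%) against 18.7%, TGANTCA in 20 (45.5%) against 34.8%, and the TEAD motif GGAATG in 4 (9.09%) against 16.6%. No member region held a MEF2 motif, which was found in 1.37% of all regions. A match is a description of the letters and not of binding.

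The windows held regions both near annotated starts and away from them. Of the 44 regions, 24 lay over 1 kb from any annotated start, a share that was not counted over all regions. These were 8 of 12 regions for Hmga2, 6 of 9 for Igf2bp1, 4 of 8 for Hmga1, 4 of 8 for Igf2bp2 and 2 of 7 for Igf2bp3. Within 500 bp of a start of some gene were 17 (38.6%), against 35.5% of all regions. 9 regions (20.5%) were among the strongest peaks in all 14 libraries, against 23.1% of all regions. The Hmga2 window held a median of 7 of the strongest peaks per library, Igf2bp2 and Igf2bp3 6, Hmga1 5 and Igf2bp1 4, where the median over all gene windows was 3.5. Fewer peaks were held by 75.4% of gene windows for Hmga2, 68.5% for Igf2bp2 and Igf2bp3, 60.1% for Hmga1 and 50.6% for Igf2bp1. Windows include the gene body, 115195 bp for Hmga2 and 7178 bp for Hmga1, and the counts are not per kb. The window edge fell between regions 159.4 kb and 176 kb beyond the Hmga2 gene body on its upstream side.

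**Figure D1:**
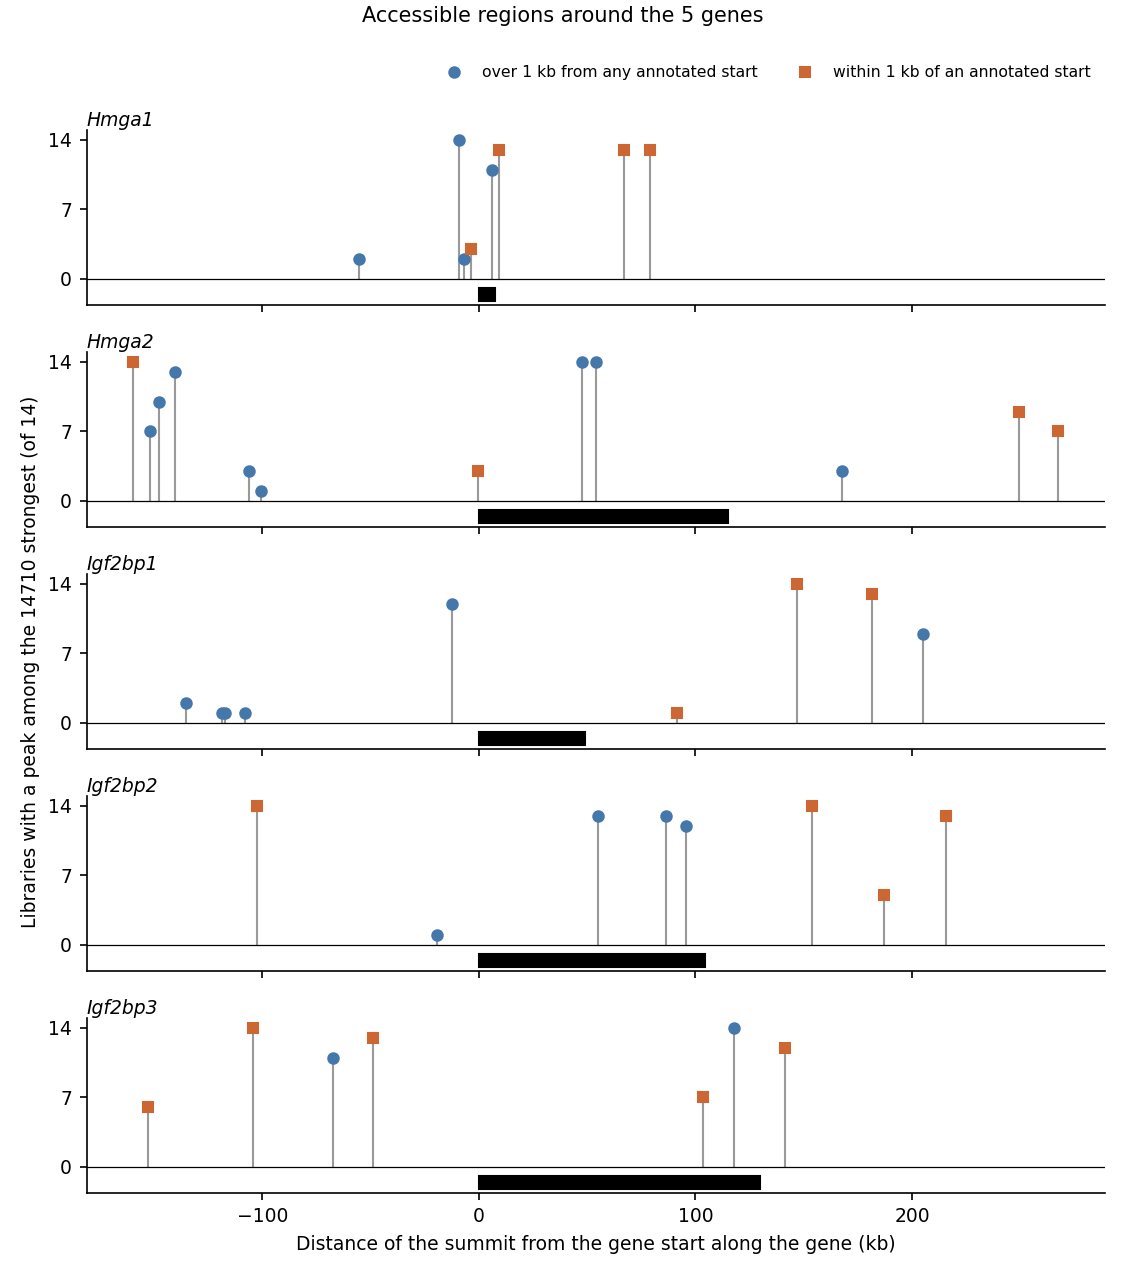
Accessible regions around each gene. The horizontal axis gives the distance of the summit from the gene start in kb, positive along the gene, the vertical axis how many of the 14 libraries held the region in their 14710 strongest peaks, and black bars the gene bodies. Hmga2 has 3 regions at 14 of 14 (1 far upstream, 2 intronic), while its own promoter reaches 3.

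The main starts of the genes were only weakly accessible. No member start carried a peak among the strongest in every library. At the main Hmga1 start a peak was deposited without dox in 2 of 4 GM and 1 of 3 DM libraries and with dox in 4 of 4 and 3 of 3. At the main Igf2bp2 start these were 2 of 4 and 1 of 3 without and 3 of 4 and 2 of 3 with dox. None was among the strongest. The main starts of Igf2bp1 and Igf2bp3 had no peak in any of the 14 libraries. Internal Igf2bp1 starts near 23.3 kb into the gene had a peak in 1 GM and 0 DM libraries without dox and in 4 GM and 2 DM libraries with it. An internal Igf2bp3 start, described below with the intron around it, was the exception, with a deposited peak in all 14 libraries and one among the strongest in 7. Counts of deposited peaks come from full lists, which ran longer with dox. Full lists held 14710 to 49300 peaks without and 36531 to 58587 with dox in GM. In DM they held 23690 to 40599 without and 46241 to 51340 with dox. The share of all starts with such differences was not counted, and the part of list length was not tested. At this depth a start without a peak is one that did not pass the peak caller, not one shown to be closed.

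Of the 5 main starts, that of Hmga2 alone had a peak among the strongest in any library. The promoter region, chr10:120476061-120477157 with its summit 0.3 kb upstream of the start, was among the strongest peaks in 2 of 4 GM no dox and 1 of 4 GM +dox libraries and in no DM library. Peaks below that rank were nearly always there: 3 of 4, 4 of 4, 3 of 3 and 3 of 3 libraries had one. On a log2 scale of fold enrichment centred on each library's median, the levels were -0.58, -0.44 and -0.97 in GM no dox (replicate 1 had no peak), -0.32, -0.70, -0.61 and -0.49 in GM +dox, -0.86, -0.76 and -1.09 in DM no dox and -1.28, -0.82 and -1.44 in DM +dox. All DM +dox levels were below all GM +dox levels, and the DM no dox levels overlapped those of GM no dox. How many of all regions had centred levels apart in this way was not counted, here or at the regions below. The region could be tested only without GM no dox replicate 1, where the log2 change of differentiation with dox was -0.68 (SE 0.17, adjusted p = 0.0975, limma) and that without dox -0.24 (adjusted p = 0.752), so neither passed 0.05.

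**Figure D2:**
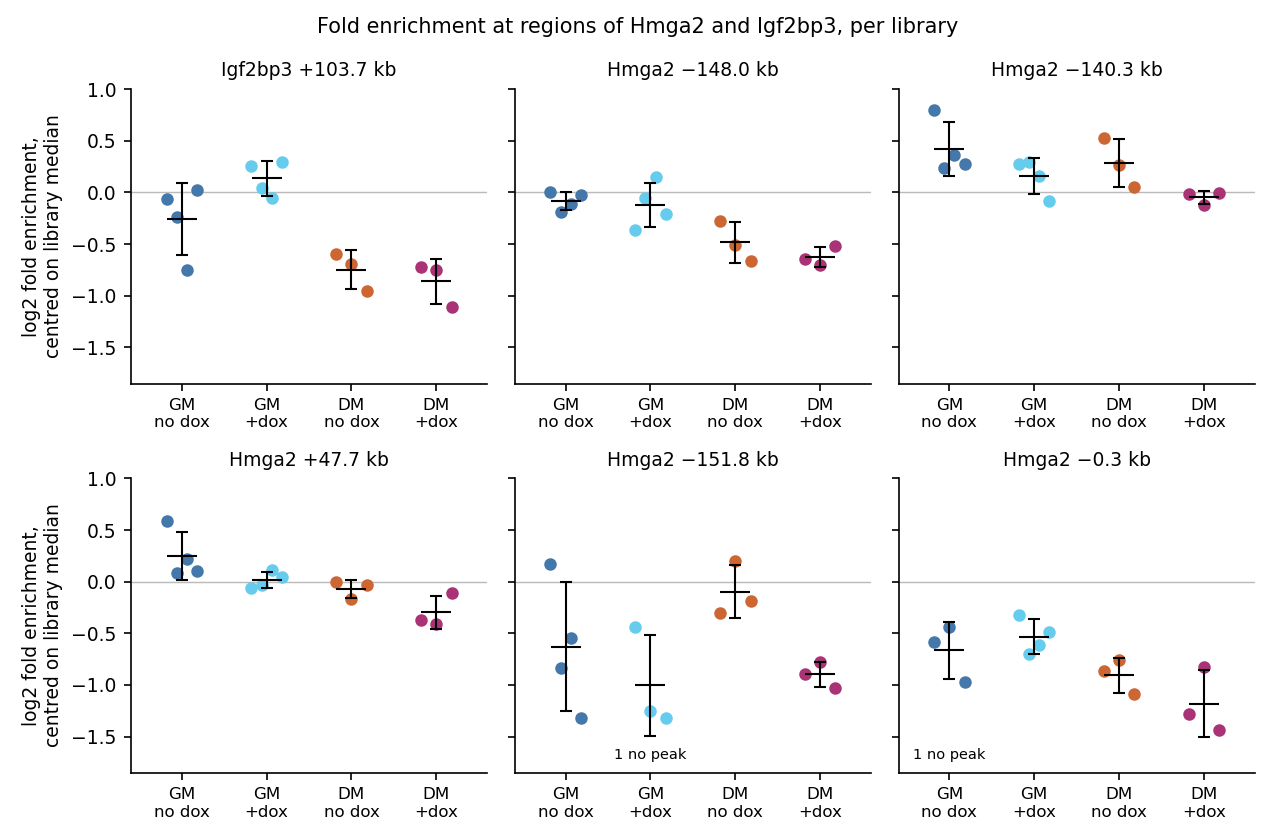
Fold enrichment per library at 6 regions, on a log2 scale centred on the library median over 11011 regions. Points are libraries, horizontal ticks group means and bars 1 SD, and libraries without a peak are counted in the panel. At the Igf2bp3 intron the GM +dox points lie between -0.05 and 0.30 and the DM +dox points between -1.11 and -0.72.

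Far upstream of Hmga2, a cluster of 4 regions spanned 140.3 to 159.8 kb before the start. The outermost, at a start of the uncharacterised gene 4930471E19Rik, was among the strongest peaks in all 14 libraries, with its best rank at 96 and its lowest at 1922. The region 140.3 kb upstream, between genes, was among the strongest in 13. The 2 regions between these were the variable ones.

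The region 151.8 kb upstream, chr10:120627996-120628478, is the one through which the genes were chosen. Among the strongest peaks it was found without dox in 3 of 4 GM and 3 of 3 DM libraries, and with dox in 1 of 4 GM and 0 of 3 DM libraries. Its ranks by p were 4919, 2506 and 7514 in DM no dox and 16988, 17942 and 27033 in DM +dox, all past the 14710 kept, the last of them far past it. It was nevertheless a deposited peak in all 3 DM +dox libraries. The deposited fold enrichment was 8.64, 11.4 and 12.5 in DM no dox and 10.1, 9.15 and 7.49 in DM +dox, which overlap. After centring, levels were -0.30, 0.20 and -0.18 against -0.90, -0.77 and -1.03, which do not. The fragments stacked at the summit numbered 49, 35 and 67 against 66, 38 and 30, over a local background of 2.16 to 4.79 and 3.14 to 5.66 fragments. The DM groups thus overlapped in raw enrichment and fragments and were apart in rank and in centred level.

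In growth medium the same region varied within groups. Centred levels were 0.17, -0.84, -0.54 and -1.32 in GM no dox, and -0.44, -1.25 and -1.32 in GM +dox replicates 1 to 3, while replicate 4 had no peak. The GM groups overlapped each other. Without GM +dox replicate 4 the region could be fitted in the remaining 13 libraries, and the log2 change for dox in GM was -0.37 (SE 0.26, adjusted p = 0.908, limma), which did not pass. Both differentiation contrasts use the DM levels that chose the genes, so no test of them is given at this region.

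The region 148.0 kb upstream of Hmga2, chr10:120624200-120624586 and between genes, was lower in DM libraries of both arms. It was among the strongest peaks in all 8 GM libraries, and, in DM, in 2 of 3 libraries without and 0 of 3 with dox, although every kept library had a peak there. Centred levels were 0.00, -0.19, -0.12 and -0.02 in GM no dox, -0.36, -0.06, 0.14 and -0.21 in GM +dox, -0.28, -0.51 and -0.67 in DM no dox and -0.64, -0.70 and -0.52 in DM +dox. No DM level reached a GM level of the same dox arm. The log2 change was -0.50 with dox (SE 0.14, unadjusted p = 0.0019, adjusted p = 0.134, limma over 11011 regions) and -0.40 without dox (SE 0.14, adjusted p = 0.250), so neither passed after adjustment. With the deposited -log10 p in place of fold enrichment the change with dox was -0.98 and passed (adjusted p = 0.0357). That scale called 316 of 11011 regions lower and 37 higher, against 34 and 2 in the main fit. Because these levels share the DM +dox libraries with the contrast that chose the genes, they are not independent of it.

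The other Hmga2 regions ranged from steady to sporadic. Sporadic ones lay 100.6 kb and 106.2 kb upstream and 167.6 kb past the start, with a deposited peak in 5, 11 and 10 of the 14 libraries. Another, 267.7 kb past the start and at a start of Tmbim4, had one in 11. An intronic pair, 47.7 kb and 54.2 kb into the gene, was among the strongest peaks in all 14 libraries. At 54.2 kb, median rank 1408, the fitted log2 change was 0.16 (SE 0.15) with dox and -0.05 (SE 0.15) without. At 47.7 kb centred levels were 0.59, 0.08, 0.22 and 0.10 in GM no dox, -0.06, -0.03, 0.11 and 0.04 in GM +dox, -0.00, -0.17 and -0.04 in DM no dox and -0.37, -0.41 and -0.11 in DM +dox. The log2 change of differentiation was -0.31 with dox (SE 0.14, adjusted p = 0.499, limma) and -0.32 without (SE 0.14, adjusted p = 0.391). Counted as fragments at the summit in place of enrichment over the local background, 47.7 kb (log2 change -0.72, adjusted p = 0.0323) and the region 140.3 kb upstream (-1.19, adjusted p = 0.0170) passed with dox. That scale, added after seeing the data, called 466 of 11011 regions lower and 79 higher, against 34 and 2 on the main scale. On the main scale the region 140.3 kb upstream changed by -0.21 (SE 0.16, adjusted p = 0.784). With -log10 p it changed by -1.12 (adjusted p = 0.0507, limma) and 47.7 kb by -0.79 (adjusted p = 0.0587). The calls thus differed between scales, and the reason was not tested.

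One region of the 5 windows passed the main test. It lies in an Igf2bp3 intron, chr6:49111023-49111475, 103.7 kb along the gene, at the annotated start of a short Igf2bp3 transcript. It was among the strongest peaks in 3 of 4 GM no dox and 4 of 4 GM +dox libraries and in none of the 6 DM libraries. Fold enrichment was 6.16, 13.1, 5.37 and 14.8 in GM no dox, 18.3, 17.2, 12.9 and 15.1 in GM +dox, 7.03, 6.16 and 7.33 in DM no dox and 11.3, 9.29 and 7.06 in DM +dox. After centring these became -0.06, -0.24, -0.75 and 0.03 in GM no dox, 0.25, 0.04, -0.05 and 0.30 in GM +dox, -0.60, -0.69 and -0.96 in DM no dox and -0.72, -0.75 and -1.11 in DM +dox. Every DM +dox library was below every GM +dox library, and in the arm without dox 1 GM library, replicate 3, lay within the DM range.

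In differentiation with dox this Igf2bp3 region fell by 1.00 on the log2 scale (SE 0.17, adjusted p = 0.0141, limma, 3 of 3 DM libraries lower). In all, 1 of the 17 member regions tested was lower, and 34 of 11011 regions were (0.309%), with 2 higher (0.0182%). With the replicate number as a block these whole-table counts were 147 lower and 39 higher. The fit with the replicate number as a block gave -0.95 (adjusted p = 0.00521). Summit fragments, which called 466 regions lower and 79 higher over the whole table, gave -1.49 (adjusted p = 0.00165). The call was lost under quantile normalization (-0.89, adjusted p = 0.0609) and without DM +dox replicate 4 (-0.87, adjusted p = 0.117). The summit held 38 to 57 fragments in GM +dox and 18 to 40 in DM +dox, over a local background of 1.58 to 2.37 and 1.15 to 2.61. Genome-wide background ran higher in DM +dox than in GM +dox with some overlap, and its part in the result was not tested.

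The same region without dox and under dox in GM did not pass. Its log2 change in differentiation without dox was -0.49 (SE 0.17, adjusted p = 0.258) and with dox in GM 0.39 (SE 0.16, unadjusted p = 0.0230, adjusted p = 0.834). Whether differentiation acted differently in the 2 arms was not tested. The best-ranked distal Igf2bp3 region, 117.8 kb into the gene, was among the strongest peaks in all 14 libraries. Its log2 change in differentiation was -0.01 with dox (SE 0.14, adjusted p = 0.996, limma) and 0.09 without (SE 0.14, adjusted p = 0.858). The next, 67.4 kb upstream and between genes, had a deposited peak in 11 of the 14 libraries. Another Igf2bp3 region, 104.2 kb upstream at the start of Ccdc126, was 0.27 higher with dox in GM (SE 0.12, unadjusted p = 0.0339, adjusted p = 0.834): levels were 0.06, 0.30, 0.35 and 0.09 without and 0.52, 0.46, 0.38 and 0.53 with dox. The groups did not overlap at that site, but the difference did not pass over all regions. The share of all regions with groups apart in this way was not counted. Over the 14 libraries, the promoter regions most like the Igf2bp3 intron, of 5105 compared, were those shared by Cd3eap and Ppp1r13l (Pearson r = 0.84), of Kmt2c (0.84) and of Pttg1ip (0.80); these libraries share depth and group, and r is given as a description.

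**Figure D3:**
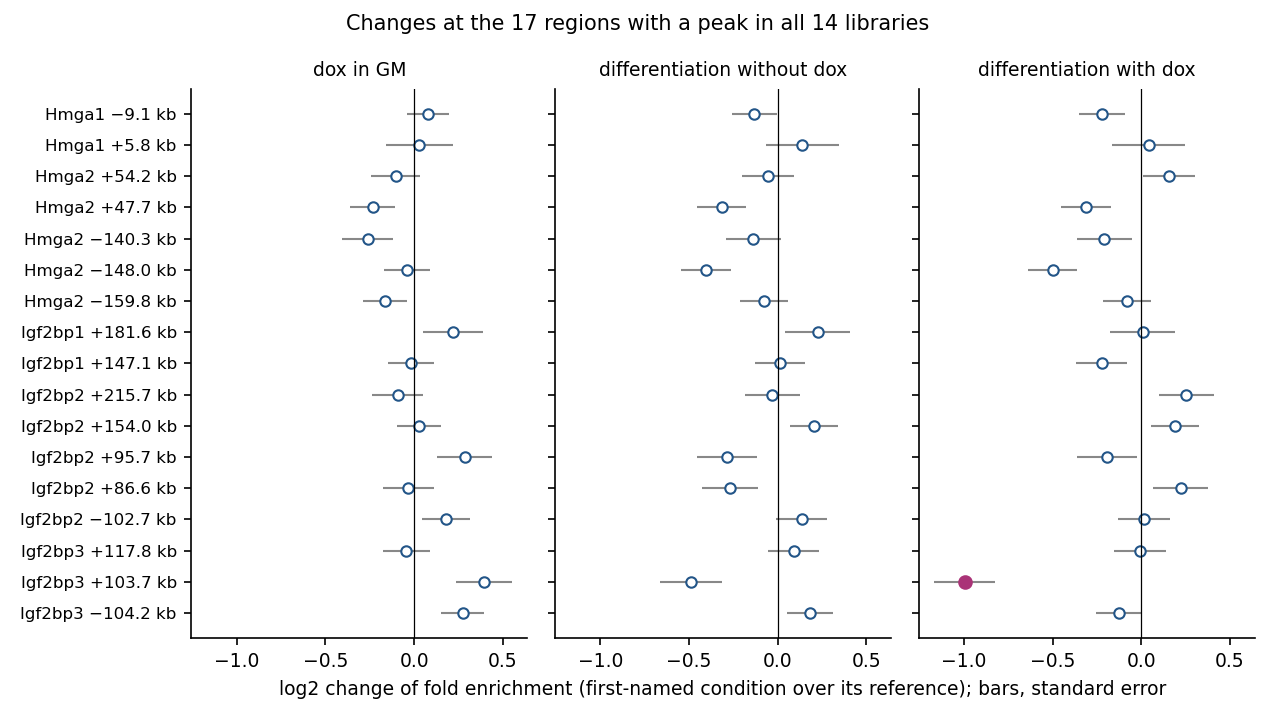
Fitted log2 change of fold enrichment at the 17 member regions with a peak in all 14 libraries, for the 3 comparisons tested. Circles are estimates, bars standard errors, and the filled circle is the region past an adjusted p of 0.05. The filled circle is the Igf2bp3 intron, which fell by 1.00 with dox, and all other estimates lie between -0.50 and 0.39.

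Igf2bp2, the family member most abundant in adult tissues, had an intronic cluster 55.0, 86.6 and 95.7 kb into the gene. These were among the strongest peaks in 13, 13 and 12 libraries. At 86.6 kb centred levels were 0.25, 0.25, -0.15 and 0.35 in GM no dox, -0.05, 0.28, 0.22 and 0.12 in GM +dox, 0.11, -0.47 and 0.07 in DM no dox and 0.44, 0.30 and 0.34 in DM +dox. The DM +dox levels lay within or just above the GM levels, and DM no dox replicate 3 was the lowest library. Its log2 change was 0.22 with dox (SE 0.16, adjusted p = 0.763) and -0.27 without (SE 0.16, adjusted p = 0.548). At 95.7 kb dox in GM gave 0.28 (SE 0.16, unadjusted p = 0.0831, adjusted p = 0.842). None of these passed.

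For both Igf2bp1 and Hmga1 the single best-ranked distal site was close to the gene, and others lay further away. The region 12.3 kb upstream of Igf2bp1, chr11:96018001-96018408, was among the strongest peaks in 12 libraries, with centred levels of 0.28 to 0.79 wherever it was called. It had no peak in GM no dox replicate 1 and DM no dox replicate 2. The next distal Igf2bp1 sites lay 205.2 kb past the start, in a Zfp652 intron, and 117.1 kb upstream, between genes. They had a deposited peak in 13 and 11 libraries. The region 9.1 kb upstream of Hmga1, chr17:27547100-27547593 in an exon of the uncharacterised gene Gm49774, was among the strongest in all 14, and changed by -0.22 with dox and -0.13 without in differentiation (SE 0.13 each, adjusted p = 0.675 and 0.755). An intronic Hmga1 site 5.8 kb into the gene was among the strongest in 11. The next, 55.5 kb upstream in a Grm4 intron, had a deposited peak in 10 libraries.

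**Figure D4:**
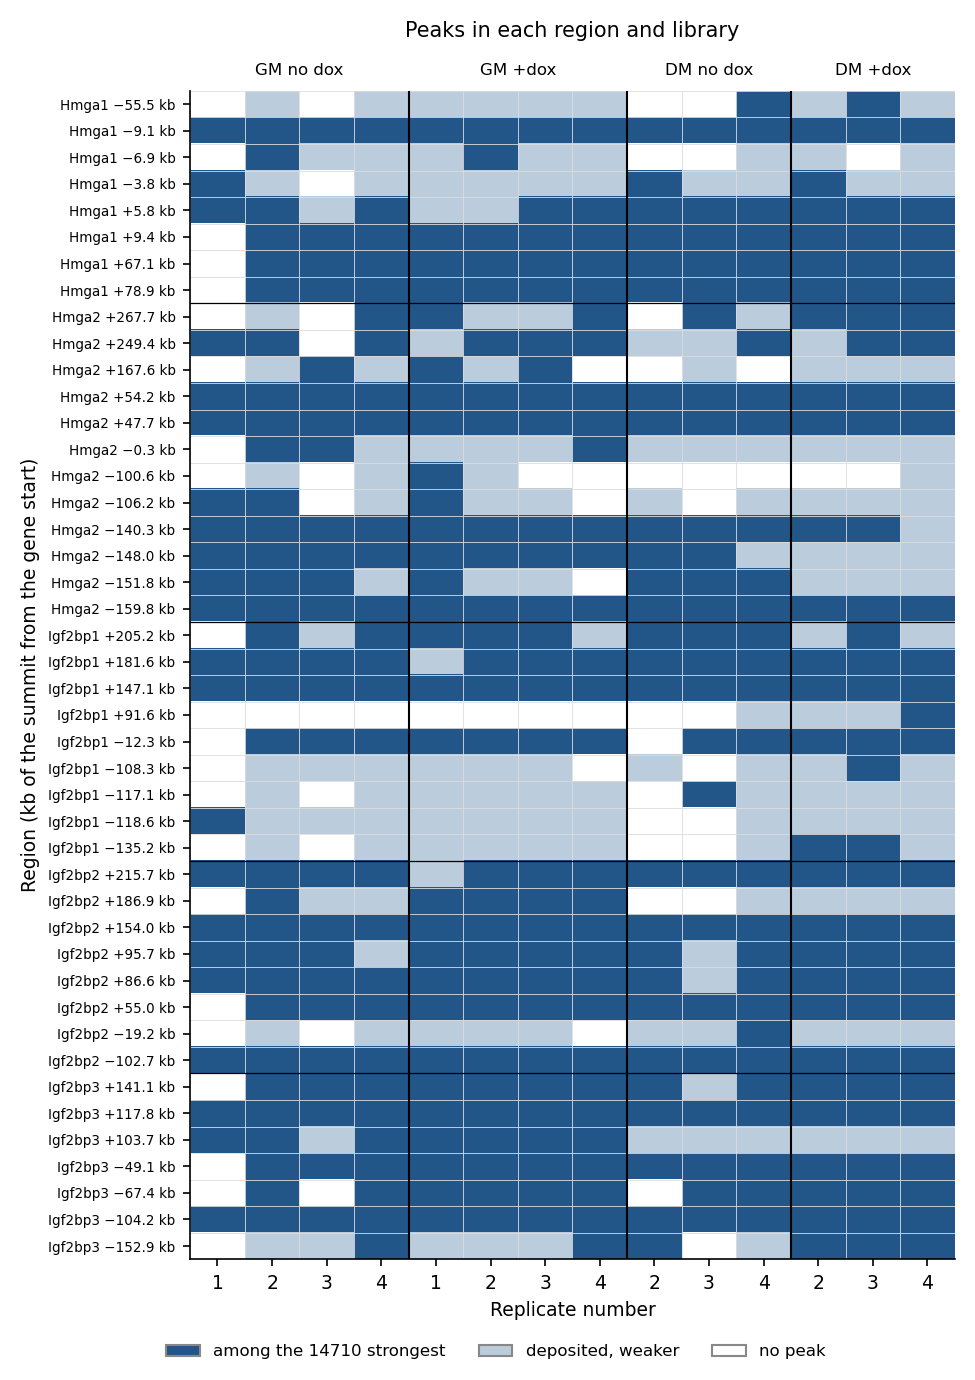
Every member region in each kept library: dark cells are peaks among the 14710 strongest, pale cells weaker deposited peaks and white cells no peak. The Igf2bp3 +103.7 kb row is pale in all 6 DM libraries, and GM no dox replicate 1 has 22 white cells.

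Dox in growth medium changed no member region past the test. Of the 17 tested, 0 passed and 2 had an unadjusted p under 0.05, both higher and both in the Igf2bp3 window. Over all 11011 regions limma called 0 (0%) in either direction, with 649 (5.89%) at an unadjusted p under 0.05, and each alternative fit with all 14 libraries also called 0. No member region was all-or-none, meaning a peak among the strongest in every library of one group and none of the other, out of 38 with a peak in either group (background 0.287%). The member log2 changes ran from -0.26 to 0.39 with a median of -0.02, the same as that of all regions.

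In differentiation without dox, 0 of the 17 regions passed (limma) and 3 had an unadjusted p under 0.05, as did 11.5% of all regions. The 3 were all lower: Hmga2 at 148.0 kb upstream and 47.7 kb into the gene, and the Igf2bp3 intron. Over all regions 44 were lower (0.400%) and 5 higher (0.0454%). With the replicate number as a block they were 126 and 34, and still 0 of the 17. 0 of 40 regions were all-or-none, where 2.03% of all were. The median change of the members was -0.05 and that of all regions 0.01. The count over all regions depended on single libraries and ran from 0 to 62 when each was left out in turn.

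In differentiation with dox, 3 of 41 regions were all-or-none lower and 0 higher, where 1.10% and 1.11% of all regions were. They were the Hmga2 region 148.0 kb upstream, the Igf2bp3 intron, and chr16:21976175-21976626, an exon at the start of Liph within the Igf2bp2 window, 186.9 kb past the Igf2bp2 start. At the Liph start ranks were 6642, 10862, 9883 and 10938 in GM +dox and 27104, 21680 and 21953 in DM +dox. Only 1 of 4 GM no dox libraries had it among the strongest. Its mean centred level was -0.25 in GM no dox (3 libraries with a peak), 0.16 in GM +dox and -0.47 in DM +dox. All 3 sites kept a deposited peak in every DM +dox library, so none was all-or-none in the full lists. The left-out DM +dox replicate 1 had a peak at all 3, and with it the count was 0. The kept DM +dox lists also served to choose the genes, so the count is not independent of that choice. The median change of the 17 tested members was -0.08 and that of all regions -0.01, with 10 below 0 and 7 above.

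Dox in differentiation medium is the contrast that chose the genes, and its values are given as a description. The region 151.8 kb upstream of Hmga2 was the only all-or-none region of 36 in either direction, lower, where 0.787% of all regions were lower and 0.824% higher. With all deposited peaks it dropped out and 5 others were all-or-none higher, of 89, where 5.37% of all were: 50.8 kb and 0.7 kb upstream and 94 kb downstream of the Hmga1 start, 140 kb upstream of Igf2bp1 and 168.4 kb downstream of the Igf2bp3 start. Full lists were longer in DM +dox (46241 to 51340 peaks) than in DM no dox (23690 to 40599). With all deposited peaks dox in GM had 2 of 111 higher (background 0.446%), 156.5 kb past the Hmga1 start and 200.2 kb past the Igf2bp1 start, and differentiation with dox had 1 of 112 (background 1.49%), 91.4 kb past the Igf2bp1 start.

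The number of peaks in the windows did not separate the groups. Among the strongest peaks the 5 windows together held 27 ± 3.92 (SD, n = 4) in GM no dox, 29.5 ± 1.00 (n = 4) in GM +dox, 26.3 ± 1.53 (n = 3) in DM no dox and 28.3 ± 1.53 (n = 3) in DM +dox. Two-sided exact permutation tests gave p = 0.343 for dox in GM, and for differentiation 0.857 without and 0.371 with dox, where the smallest p possible was 0.0286. The Hmga2 window held 7 to 9 in GM no dox, 6 to 11 in GM +dox, 6 to 7 in DM no dox and 6 in every DM +dox library. Its means were 1.92 lower (exact p = 0.0857, adjusted over all gene windows 0.926) and 2.25 lower (exact p = 0.143, adjusted 0.912) in DM without and with dox. In the 3 comparisons tested, no window had groups that did not overlap (background 0.611%, 4.19% and 3.76% of gene windows). In dox in DM, described only, the Igf2bp3 window held 4 to 5 without and 6 with dox (background 3.68%).

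**Figure D5:**
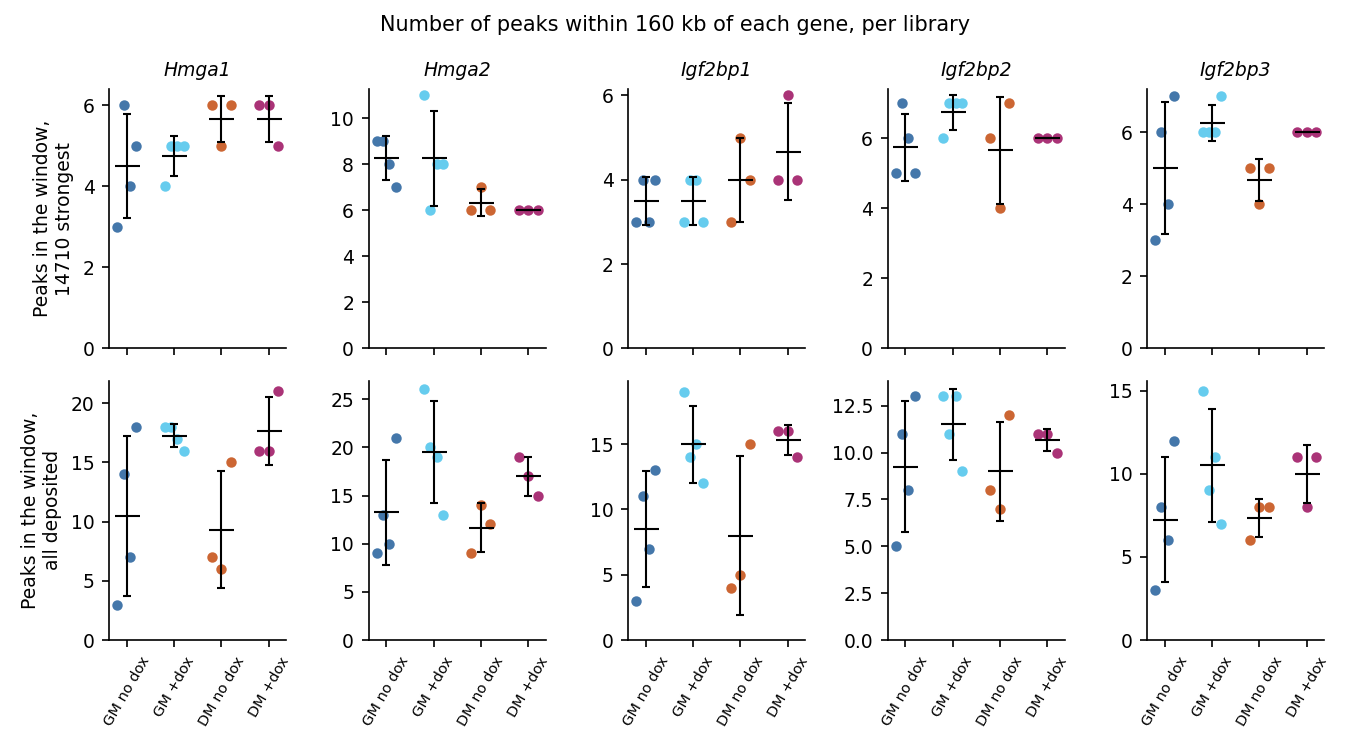
Number of peaks in each gene window per library, in lists cut to the 14710 strongest (top) and in all deposited peaks (bottom). Points are libraries, ticks group means and bars 1 SD. The Hmga2 window holds 6 in each DM +dox library and 6 to 11 in GM +dox among the strongest.

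Partners and targets of the let-7, HMGA and IGF2BP axis were read at their promoters. Of 17 genes reported, 8 had a region within 500 bp of a start (Igf1r, Myc, Nras, Cdk6, Cdc34, Arid3b, Dicer1 and Elavl1), and 9 had none, among them Lin28a, Lin28b, Igf2 and H19. The promoters of Dicer1, which matures microRNAs, of Elavl1, an RNA-binding protein that stabilises transcripts, and of Cdc34 and Arid3b were among the strongest in all 14 libraries. In the 6 genes that could be tested, 0 regions passed (limma) in any of the 3 comparisons, and 1 had an unadjusted p under 0.05, in differentiation without dox, where 11.5% of all regions did. Their log2 changes ran from -0.33 to 0.11 for dox in GM, and for differentiation from -0.11 to 0.38 without and from -0.17 to 0.24 with dox.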

How the data were processed

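ATAC-seq was done by the authors on 16 libraries of C2C12 iMyoD1 cells, processed with nf-core/atacseq against mm10 with blacklisted regions removed, and peaks were called per library with MACS2 (version not given in the sources used here). The deposited lists give for each peak a score, a fold enrichment (a ratio over the local background of that library), a -log10 p-value and a -log10 q-value. They hold no read counts, so no count model was used, and depth was judged from list length and from summit fragments recovered from fold enrichment and p.

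Of the 16 libraries, 14 were compared and 2 left out as in the study's methods. Replicates are biological replicates per the labels. Every list was cut to the length of the shortest kept one, 14710 peaks, ordered by -log10 p, and peaks overlapping by at least 1 bp were merged across libraries. Where all 14 libraries had a deposited peak (11011 regions), log2 fold enrichment of the strongest peak, centred on each library's median over these regions, was tested with limma 3.58.1 in R 4.3.3 with Benjamini-Hochberg adjustment over all regions and a threshold of 0.05. This leaves out regions lost entirely in a library. Peaks per window were compared with two-sided exact permutation tests. Scripts were checked on simulated data. Genes followed GENCODE M21 and sequence came from RefSeq GRCm38.p6.

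Named regions were the members' promoters, the all-or-none regions, those past the limma threshold and, for each gene, up to 3 best-ranked regions over 1 kb from any start. Other regions were printed beyond this rule and chosen after their values were seen. They were the Ccdc126 start, the interval at 159.8 kb, the sporadic Hmga2 regions and those all-or-none in the full lists. The region 181.6 kb past the Igf2bp1 start was named through Dixon's criterion, described below. The members and lists were chosen with earlier results of these data known. One gene of the list of partners and targets is not reported here. Same-numbered libraries deviated together in dox in GM (correlations 0.165 to 0.276 over regions), dox in DM (0.189 to 0.365) and differentiation with dox (0.188 to 0.463). They did so less evenly in differentiation without dox (0.0967 to 0.462). The main limma fit and the permutation tests nevertheless took no account of the replicate number. Pairing entered only through the replicate block, as an alternative. Alternatives were quantile normalization, -log10 p, other lists and windows, all 16 libraries, a replicate block and each library left out; summit fragments were added after seeing the data.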

Additional observations from a re-analysis of the deposited data

Results flagged for a closer look

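Dixon's criterion was applied to 58 groups of 4 libraries, and 5 passed its 95% critical value, where chance flags about 1 in 20. All 5 were in GM +dox, and 4 were peak counts that differed by 1 or 2 peaks. In each of those 4 counts 3 libraries tied, so the criterion passed whatever the size of the gap. The count over all windows also contains the single windows. The Hmga1 window held 4 peaks in 1 library and 5 in the other 3, the Igf2bp2 window 6 against 7, and the Igf2bp3 window 7 against 6. All windows together held 28 in 1 library and 30 in the others. At the region 181.6 kb past the Igf2bp1 start, in a Zfp652 intron at the start of Phospho1, the centred log2 fold enrichment was -0.32 in replicate 1 and 0.33 to 0.39 in the other 3.

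The left-out DM +dox replicate 1, whose whole list of 14236 peaks is shorter than the 14710 kept elsewhere, had a peak at each of the 3 regions that no kept DM +dox library had among its strongest. Fold enrichment was 4.65 at the region 148.0 kb upstream of Hmga2 (rank 11147), 4.58 at the Liph start in the Igf2bp2 window (rank 11946) and 4.05 in the Igf2bp3 intron (rank 13006).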

How the results depend on the processing

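Depth and list length limit these results: a missing peak is one that was not called, and the test covers 17 of 44 member regions. The Igf2bp3 intron in differentiation with dox lost its call under quantile normalization and without DM +dox replicate 4, with a range of -1.07 to -0.87 and adjusted p from 0.00283 to 0.117 over libraries left out; the cause was not tested. It could not be fitted in the regions among the strongest in all 14 libraries or with all 16.

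Regions called over the whole table, for dox in DM, differentiation without dox and differentiation with dox in turn, were 8, 49 and 36, and became 0, 35 and 8 with quantile normalization, 26, 126 and 353 with -log10 p, 0, 1 and 1 among regions strong in all 14 libraries, 0, 0 and 0 with all 16, 88, 160 and 186 with the replicate block, and 30, 225 and 545 with summit fragments. Leaving out a library gave 0 to 1 for dox in GM, 0 to 16, 0 to 62 and 9 to 72. The replicate block changed no call of a member, and gave window differences of 2.5, 2, -2 and -1 peaks for dox in GM, dox in DM and differentiation without and with dox.

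With all deposited peaks, all-or-none member regions numbered 2 higher for dox in GM, 5 higher and 0 lower for dox in DM, and 1 higher and 0 lower for differentiation with dox; the windows differed by 25.3 peaks for dox in DM; the region 151.8 kb upstream of Hmga2 was present in 100% of GM libraries without dox and 100% of DM libraries with it; and differentiation without dox reversed for Hmga1 (-1.17), Igf2bp1 (-0.5) and Igf2bp3 (0.0833). Ranked by fold enrichment, that Hmga2 region was in 0% of GM +dox libraries, and Hmga1 with dox in GM (-0.25), Igf2bp2 without dox (0.417) and all windows with dox (0.333) reversed. With half-length lists it was in 0% of GM +dox, the lower all-or-none counts were 0 (dox in DM) and 0 (differentiation with dox), the windows differed by -1 for dox in DM, and reversals were all windows (0.833) and Igf2bp3 (1.17) without dox, and Hmga1 (-0.833), Igf2bp2 (0.0833) and Igf2bp3 (0.5) with dox. With all 16 libraries the windows differed by 7 for dox in DM, both all-or-none counts lower were 0, and Hmga1 (-0.25) and Igf2bp1 (-0.25) without dox and Igf2bp3 (0.25) with dox reversed. These 16 included DM no dox replicate 1, whose list held 1287 peaks. With 50 kb margins the lower all-or-none counts were 0 (dox in DM) and 1 (differentiation with dox), and Hmga1 for dox in GM (-0.25) and Igf2bp1 (-0.0833) and Igf2bp2 (0.167) without dox reversed.

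Leaving out libraries, window differences ranged from 1.17 to 4.17 for dox in GM, 1.17 to 2.83 for dox in DM, -2 to 1 without dox and -2 to -0.5 with dox, all-or-none counts from 0 to 1 (higher for dox in GM, dox in DM and differentiation with dox; lower for differentiation without dox) and 1 to 2 (lower for dox in DM), and the Hmga2 region from 66.7% to 100% of GM no dox and 0% to 33.3% of GM +dox libraries. Without dox, Igf2bp2 ran from -0.75 to 0.75, with reversals to 0.333 and 0.75, and Igf2bp3 from -1 to 0.333; Hmga1 with dox in GM ran from -0.25 to 0.75.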
